A study of Mus musculus with 2 samples.

Results

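The genes described here are 10 immediate early and stress-induced genes of the mouse: Fos, Fosb, Jun, Junb, Jund, Egr1, Ier2, Ier3, Atf3 and Ddit4. They were chosen by name, and each was found on the array through a probe whose platform annotation gives that symbol and no other. All 10 were present, with 1 probe each, among 13697 genes with a named probe and 32440 probes in all. The values come from embryoid bodies, floating clumps formed by differentiating embryonic stem (ES) cells. One aggregate sample was grown from ES cells labelled Elongin A-/-, with no intact allele of the elongation factor by that label, and the other from ES cells labelled Elongin A+/+, the wild type. Both were held in serum-containing medium with N2 supplement and exposed to 2 µM retinoic acid, with RNA taken at day 4. The sources used here do not give the ES cell clones, the way the allele was made or the number of bodies behind each RNA sample.

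There was 1 array for each genotype, so no difference below has a replicate check, no p-value is given, and effects of genotype, clone, culture dish and array cannot be told apart. Median deposited intensities were 1.03 on the Elongin A-/- array and 1.02 on the Elongin A+/+ array. Intensities below are those after quantile normalisation, and the floor is the array median after that step, 1.03. Genes brighter than the floor on either array were counted as measured, 9568 in all. Differences are log2 values of the Elongin A-/- array minus the Elongin A+/+ array, with values under the floor set to it, so a gene under the floor on 1 array has only a bound, written "at least". The spread between probes of the same gene, over 224 other genes with several probes above the floor on both arrays, had an SD of 0.43 on the log2 scale. That SD holds disagreement between probes on the same RNA, not the spread between cultures, and comes from genes above the floor. None of the 10 genes has another probe to set beside it. The probe of the targeted gene, Eloa, gave 3.58 on the Elongin A-/- array and 3.88 on the Elongin A+/+ array. Its position relative to the altered part of the gene is unknown here, so the probe is no check of the labels.

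Immediate early genes are transcribed within minutes of a signal without new protein synthesis, largely because kinases such as ERK, JNK and p38 switch on factors that already sit at their promoters. Fos and Jun proteins pair through leucine zippers to form AP-1, EGR1 is a zinc finger factor of the same early wave, and the transcripts are short-lived, so their level follows recent signalling closely. At many of these genes RNA polymerase II waits just past the start site and is released on stimulation, and Elongin A is one of the factors that act on the polymerase during the elongation that follows. ATF3 and DDIT4 (REDD1) are induced by stresses such as amino acid shortage, hypoxia and unfolded protein, and DDIT4 restrains mTOR complex activity.

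Fos, Ddit4 and Ier3 were the members at least 2-fold higher on the Elongin A-/- array, and no member was 2-fold lower. Fos was 3.72-fold, Ddit4 2.81-fold and Ier3 2.04-fold higher. Jun, Jund, Egr1 and Atf3 each lay within 1.19-fold, Ier2 was 1.42-fold higher, and Junb and Fosb gave only bounds. All 10 members were measured, 8 of them above the floor on both arrays. The count of 3 members 2-fold higher stands against a background of 6.77% of all measured genes (648 of 9568), and the count of 0 lower against 5.99% (573 of 9568). The median difference over the 10 members was 0.31, and over all measured genes it was -0.02. With the floor raised to the 75th percentile, an intensity of 5.21, Ddit4 was the only member left at least 2-fold higher.

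**Figure D1:**
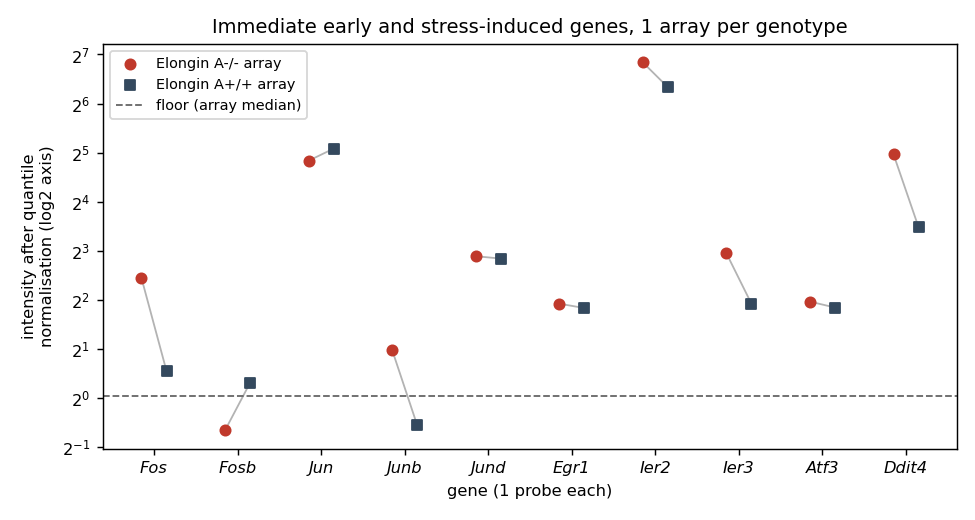
Intensity after quantile normalisation (log2 axis) of the 10 genes, with the Elongin A-/- array as red circles on the left of each pair, the Elongin A+/+ array as dark squares on the right, and the floor as a dashed line. Fos, Ddit4 and Ier3 are at least 2-fold higher on the Elongin A-/- array, Ier3 only just. Fosb is under the floor on the Elongin A-/- array and Junb on the Elongin A+/+ array. Each symbol is a single probe on a single array.

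The promoter letters of the members with the widest margins are printed here, with Fosb, the closest relative of Fos, for comparison. The sequences are those RefSeq gives for assembly GRCm38.p6, each running 5′ to 3′ on the gene's strand and ending at the base before the annotated start. Each holds 210 bases, so matches further upstream or after the start are not printed. Capitals mark matches, on either strand, to the letters searched. These were the half-site of the cAMP response element, spelled TGACG, and the full element, spelled TGACGTCA. The AP-1 site was spelled TGACTCA and the EGR site GCGGGGGCG. The TATA box was searched as TATAAA, the CCAAT box under its own letters and the GC box as GGGCGG. The core of the hypoxia response element was taken as ACGTG and the ETS site as TTCCGG, and the CArG box, to which serum response factor binds, was searched in its standard form.
Fos (chr12:85473680-85473889, plus strand): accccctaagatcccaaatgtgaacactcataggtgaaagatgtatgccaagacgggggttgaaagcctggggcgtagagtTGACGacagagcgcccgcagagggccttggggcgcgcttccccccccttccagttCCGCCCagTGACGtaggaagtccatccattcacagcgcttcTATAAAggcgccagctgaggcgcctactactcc
Ddit4 (chr10:59951771-59951980, minus strand): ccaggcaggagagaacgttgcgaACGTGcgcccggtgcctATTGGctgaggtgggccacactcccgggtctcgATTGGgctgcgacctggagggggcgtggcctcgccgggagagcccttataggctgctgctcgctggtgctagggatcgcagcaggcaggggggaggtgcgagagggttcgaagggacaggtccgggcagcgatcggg
Ier3 (chr17:35821503-35821712, plus strand): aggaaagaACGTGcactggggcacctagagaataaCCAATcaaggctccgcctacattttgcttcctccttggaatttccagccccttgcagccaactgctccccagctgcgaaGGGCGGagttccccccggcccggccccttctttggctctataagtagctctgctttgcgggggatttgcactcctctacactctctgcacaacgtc
Junb (chr8:84978749-84978958, minus strand): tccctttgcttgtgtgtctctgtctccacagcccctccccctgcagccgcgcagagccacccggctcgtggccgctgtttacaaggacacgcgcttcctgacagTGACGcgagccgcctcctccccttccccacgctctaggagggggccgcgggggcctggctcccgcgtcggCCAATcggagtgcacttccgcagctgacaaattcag
Fosb (chr7:19310046-19310255, minus strand): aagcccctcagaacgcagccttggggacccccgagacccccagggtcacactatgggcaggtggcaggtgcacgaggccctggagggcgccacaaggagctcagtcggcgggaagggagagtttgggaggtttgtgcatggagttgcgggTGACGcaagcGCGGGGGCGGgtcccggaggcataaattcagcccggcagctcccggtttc

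Promoters were found for 8 of the 10 genes, all but Egr1 and Ier2. In the window searched, 250 bases before to 50 after the start, TGACG occurred in Fos, Fosb, Junb and Atf3, and in 20.8% of the 32851 mouse promoters in the table. Fos held it at 2 places, with the first base 129 and 66 bases before the start, and Fosb at 1 place, 60 bases before it. TGACG was added to the search after the letters had been seen, and it lies inside TGACGTCA. The TATA letters were found 33 bases before the start of Fos and at the start itself in Junb, against 13.6% of promoters. ACGTG occurred in Ddit4, 187 bases before the start, in Ier3, 202 bases before it, and in Jund, against 19.6% of promoters. GGGCGG was present in 6 of the 8 and in 35.7% of promoters, and CCAAT in 5 of the 8 and in 37.4%. GCGGGGGCG was found in Fosb alone among the 8, where it overlaps a GGGCGG, and in 2.91% of promoters. None of the 8 windows held the CArG box (1.63% of promoters), TGACGTCA (1.79%), TGACTCA (5.20%) or TTCCGG (14.9%). Bases more than 250 before the start were not searched, so these absences hold for the window alone. They do not show that Fos or any other member lacks such an element further upstream. No set of letters searched was shared by Fos, Ddit4 and Ier3 except GGGCGG, which Fosb, Jun and Atf3 also hold. In Ddit4 those letters begin 232 bases before the start, outside the bases printed. These matches describe letters in a window and say nothing about binding in these cells.

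The AP-1 subunits differed from one another. Fos, which cannot pair with itself and joins a Jun protein to form AP-1, had an intensity of 5.43 on the Elongin A-/- array and 1.46 on the Elongin A+/+ array. The difference of 1.90 placed Fos at rank 133 of 9568 measured genes counted from the highest. The value on the Elongin A+/+ array sits close to the floor. Among measured genes with a mean level under 4, a band that holds Fos and runs down to the floor, 10.9% were at least 2-fold higher. As deposited, Fos had 5.70 on the Elongin A-/- array and 1.41 on the Elongin A+/+ array, a difference of 2.01. Adding a pseudocount equal to the floor in place of the floor gave 2.60-fold, and the floor at the 75th percentile left 1.04-fold, since the value of 5.43 then barely clears it.

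Fosb, the Fos relative that yields the stable ΔFosB protein in neurons, had 0.63 on the Elongin A-/- array, under the floor, and 1.23 on the Elongin A+/+ array. It was therefore lower by a bound of only 0.26 on the log2 scale, the opposite direction to Fos, and both values lie near the floor. Without a floor the ratio was 1.96-fold lower. Jun, the principal partner of Fos, had 28.5 on the Elongin A-/- array and 33.8 on the Elongin A+/+ array, a difference of -0.25 that is smaller than the SD between probes. Jun is far above the floor on both arrays, so its value does not depend on the floor, and its difference lay between -0.29 and -0.17 in every other setting tried.

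Junb, a Jun protein that activates more weakly and often restrains Jun, had 1.96 on the Elongin A-/- array and 0.68 on the Elongin A+/+ array. The second value is under the floor, so Junb was at least 1.91-fold higher, and by 1.53 on the log2 scale without a floor. Jund, the Jun protein most steadily made in resting cells, had 7.39 on the Elongin A-/- array and 7.14 on the Elongin A+/+ array. Its difference of 0.05 is far inside the SD between probes. Over the 5 AP-1 genes 1 was at least 2-fold higher, the median was 0.05, and the range ran from -0.26 to 1.90.

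Egr1, Ier2 and Ier3 are the remaining early response genes. Egr1 had 3.78 on the Elongin A-/- array and 3.55 on the Elongin A+/+ array, a difference of 0.09 that is inside the SD between probes. Ier2, a short nuclear early response protein, had 114 on the Elongin A-/- array and 80.5 on the Elongin A+/+ array. That is 1.42-fold, and the difference of 0.51 is a little over the SD between probes. Ier3 (IEX-1), which modulates ERK signalling and cell survival, had 7.70 on the Elongin A-/- array and 3.77 on the Elongin A+/+ array. It only just passes 2-fold: it was 2.28-fold with the values as deposited, 1.82-fold with the pseudocount and 1.48-fold with the floor at the 75th percentile.

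The pair of stress genes parted. Ddit4 had 31.2 on the Elongin A-/- array and 11.1 on the Elongin A+/+ array, both well above the floor, and ranked 250 of 9568 from the highest. Its difference of 1.49 lay between 1.41 and 1.57 in the 10 other settings. Atf3, a bZIP factor that stress induces and that can pair with Jun proteins, had 3.89 on the Elongin A-/- array and 3.58 on the Elongin A+/+ array, a difference of 0.12 that is inside the SD between probes.

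Scatter between the arrays narrowed with level, so the same margin is more common among dim genes than among bright ones. Among 4110 measured genes with a mean level under 4, the band that holds Fos, Fosb, Junb, Egr1 and Atf3, 10.9% were at least 2-fold higher and 10.1% at least 2-fold lower. From 4 to 16, the band of Jund and Ier3, 5.94% of 2507 genes were higher. Above 16, the band of Jun, Ier2 and Ddit4, 1.80% of 2951 genes were higher, and Ddit4 is one of those 53 genes. With 31.2 on the Elongin A-/- array and 11.1 on the Elongin A+/+ array, Ddit4 lies near the lower edge of that band. The band just below it is the one with 5.94%. Levels here are geometric means of both arrays, and a probe's level cannot be compared with that of another probe.

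**Figure D2:**
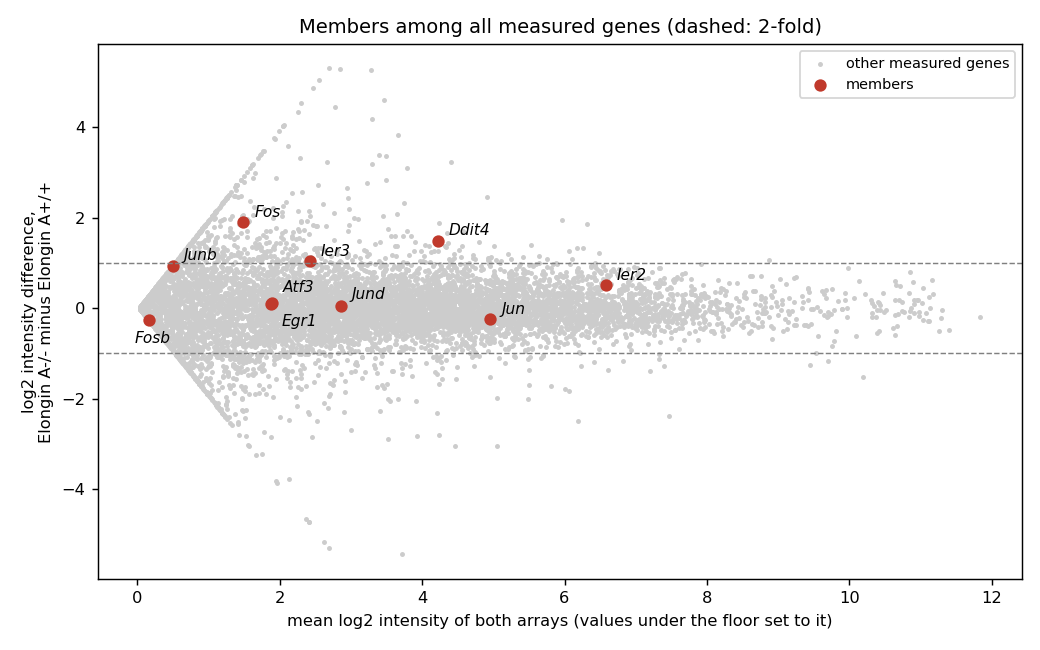
Log2 difference (Elongin A-/- minus Elongin A+/+) against the mean log2 intensity of both arrays for all measured genes (grey) and the 10 members (red), with dashed lines at 2-fold. Fos, at 1.90, lies in the wide cloud of dim genes, and Jun and Ier2 lie within 2-fold. Ddit4, at 1.49, lies near the lower edge of the bright band, where fewer genes pass 2-fold.

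Junb, Jund and Ier2 lie on chromosome 8, and the measured genes of that chromosome were higher as a whole on the Elongin A-/- array. The median over its 522 measured genes was 0.43, and 11.9% of them were at least 2-fold higher, against 6.77% of all measured genes. The 3 members there had differences of 0.93, 0.05 and 0.51, each above 0, with a median of 0.51. With the median of chromosome 8 taken away, Junb stood at 0.50, Jund at -0.38 and Ier2 at 0.08. The medians of the chromosomes that carry the other members lay between -0.09 and -0.01, so Fos (1.99), Ddit4 (1.56) and Ier3 (1.06) kept their margins after the same step. The part of chromosome 8 in the values of Junb, Jund and Ier2 was not tested beyond this subtraction.

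Neighbouring genes were read beside each member, taking the 3 nearest measured genes on either side in the gene order of GRCm38.p6. The 6 neighbours of Jund had a median of 0.87, those of Ier2 0.66 and those of Junb 0.48. Those of Jun, on chromosome 4, had a median of 0.50, with 2, Tek and Cyp2j6, at least 2-fold higher. Over all 60 neighbours the median was 0.13, and 7 were at least 2-fold higher, against 6.77% of all measured genes. Jund was lower than each of its 6 neighbours. The measured gene that follows Fos is Jdp2, an AP-1 repressor, which was at least 2.55-fold higher, with 2.62 on the Elongin A-/- array and 0.84, under the floor, on the Elongin A+/+ array. The other neighbours of Fos included Nek9, a kinase of mitosis, at -0.05, and Tgfb3, a growth factor gene, at -0.85, and the median of the 6 was 0.04. The neighbours of Ier3 had a median of 0.04 with none at least 2-fold higher, and those of Ddit4 had a median of 0.15 with 1, Edar, at least 2-fold higher.

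**Figure D3:**
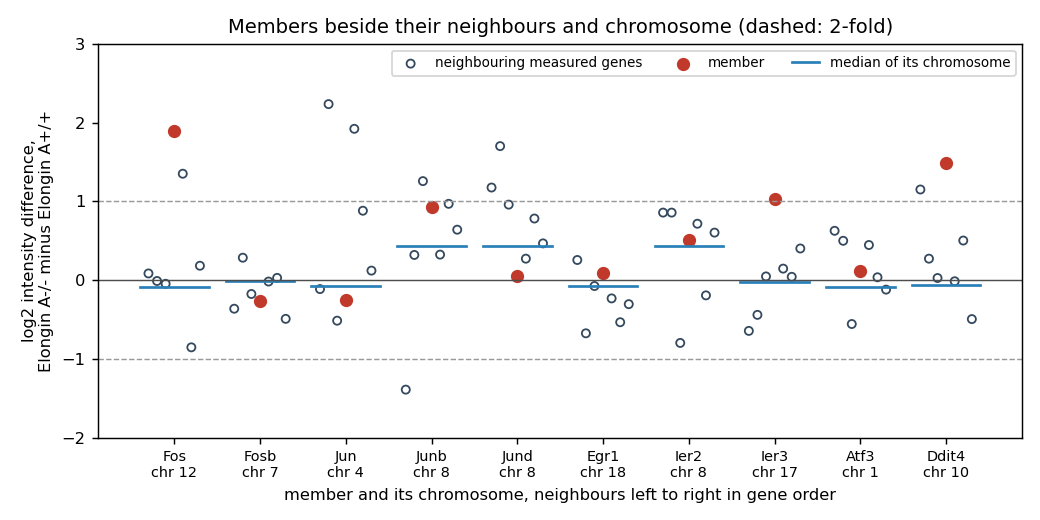
Log2 difference (Elongin A-/- minus Elongin A+/+) of each member (red), of the 3 nearest measured genes on either side in gene order (open circles) and the median of the member's chromosome (blue line). The line of chromosome 8, which carries Junb, Jund and Ier2, is at 0.43, while Fos, Ier3 and Ddit4 stand above lines close to 0.

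Other early genes gave no common direction. Of 36 serum-induced early genes listed beside the members, 30 were measured, 4 were at least 2-fold higher and 1 lower, with a median of 0.09. Sgk1, a kinase induced by serum and glucocorticoid, had 16.7 on the Elongin A-/- array and 3.67 on the Elongin A+/+ array. Nr4a3, an orphan nuclear receptor of the early wave, had 46.1 on the Elongin A-/- array and 16.8 on the Elongin A+/+ array. Ccn2, the connective tissue growth factor, went the other way, with 3.38 on the Elongin A-/- array and 16.5 on the Elongin A+/+ array. The other 2 that were higher, picked out after their values were seen, were the nuclear receptor gene Nr4a2, at 2.15-fold, and Bhlhe40, a clock repressor, at least 2.52-fold. Among 13 named genes of the AP-1 and ATF families outside the members, 11 were measured, Jdp2 was at least 2-fold higher and none was lower, with a median of -0.06 that turned to 0.08 with the values as deposited. Batf3, which pairs with Jun proteins, had -0.56 and Atf1, a CREB relative, -0.38. Egr2, Egr3 and Egr4, the relatives of Egr1, were below the floor on both arrays together with Nab1, while Nab2, an EGR corepressor, differed by 0.04.

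Upstream of these genes, Srf binds the CArG box together with the ternary complex factors Elk1, Elk3 and Elk4, which ERK phosphorylates. Elk3 had 6.98 on the Elongin A-/- array and 2.81 on the Elongin A+/+ array, Elk1 was at least 2.04-fold higher, and Elk4 was 1.53-fold higher. Srf itself, picked out after its value was seen, had a difference of -0.53. Of the 6 listed genes 4 were measured. At least 2-fold higher were 2, and 1 when the arrays were centred on the median above the floor, while none was lower. Of 14 named kinases of the ERK, JNK and p38 cascades, all measured, 1 was at least 2-fold higher, and none was lower. The count higher was 3 with the values as deposited and 0 once the floor was raised to the 75th percentile. The count lower was 1 when the arrays were centred or a pseudocount was used, and 2 once the floor was dropped to the 25th percentile or removed. The higher one was Mapk11, the p38 beta kinase, at least 5.57-fold higher with 5.72 on the Elongin A-/- array. Mapk7 (ERK5) had 26.7 on the Elongin A-/- array and 13.5 on the Elongin A+/+ array, a difference of 0.98, and lies on chromosome 11, whose median was 0.41. Mapk10 (JNK3) was at least 1.93-fold lower by 1 probe, while its other probe was below the floor on both arrays.

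Genes that shut the response off went in both directions. Of 17 measured genes for feedback phosphatases, Sprouty and SPRED proteins and mRNA decay factors, 4 were at least 2-fold lower and 1 higher. Over all measured genes 5.99% were lower and 6.77% higher. Among those with a mean level under 4, the band that holds Spred1 and Spred2, 10.1% were lower. With the floor at the 75th percentile 1 of the listed genes was lower and 0 higher. The median was -0.08, or 0.00 with the values as deposited. Spred1, which blocks activation of RAF, had 1.17 on the Elongin A-/- array and 4.85 on the Elongin A+/+ array. Its relative Spred2 was at least 2.60-fold lower, under the floor on the Elongin A-/- array. Dusp8, a phosphatase of JNK and p38, had 2.78 on the Elongin A-/- array and 7.28 on the Elongin A+/+ array. Dusp9, an ERK phosphatase, was 2.34-fold lower. Dusp1, a phosphatase that is itself an immediate early gene, differed by 0.17, and Zfp36 (tristetraprolin), which speeds decay of early transcripts, was at least 2.10-fold higher. Dusp9, Dusp1 and Zfp36 were picked out after their values were seen.

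The genes around Ddit4 and Atf3 were read as stress lists. Of 30 listed genes of the integrated stress and unfolded protein responses, Atf6, Trib3, Cebpg, Stc2 and Nupr1 had no named probe. Slc7a11 was below the floor on both arrays. Of the 24 measured, none was at least 2-fold higher and 1 was lower, with a median of -0.24. The lower one was Eif2ak2 (PKR), with 4.99 on the Elongin A-/- array, which stands at the threshold and passed it in 4 of 10 other settings, in none of which the scaling was changed. Xbp1, a factor of the unfolded protein response, was 1.78-fold higher and lies on chromosome 11, and Mthfd2, a mitochondrial folate enzyme driven by ATF4, was 1.72-fold lower and lies on chromosome 6, whose median was -0.26. On the REDD1 and hypoxia list, Tsc1, Tsc2, Epas1, Arnt, Ndrg1 and Car9 were below the floor on both arrays. Rheb, Hif1a, Ankrd37 and P4ha1 had no named probe. Of the 13 measured genes 3 were below 0, Slc2a1, Egln3 and Mtor, and 10 were above, and the median was 0.46. At least 2-fold higher was 1 of them, Adm, and none was lower. Adm, which encodes the peptide adrenomedullin, had 7.45 on the Elongin A-/- array and 1.88 on the Elongin A+/+ array, P4ha2, a collagen prolyl hydroxylase, was 1.81-fold higher, and Rptor, the RAPTOR subunit of mTOR complex, was at least 1.79-fold higher. P4ha2 and Rptor both lie on chromosome 11. Heat shock genes had 0 of 10 measured genes at least 2-fold higher and 1 lower, Hspb8, which was not past 2-fold with the values as deposited, and their median was -0.35. Of the 17 listed, Hspa1a, Hspa1b, Hspa8, Hspb1, Hsp90aa1, Hsp90ab1 and Hsf1 had no named probe. The count therefore says nothing about those genes. Hsph1, a chaperone, was 1.56-fold lower and Hsf2, a heat shock factor, had a difference of -0.59.

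Among pausing and elongation factors all 15 named genes were measured, none was 2-fold apart, and the median was -0.00, or 0.10 with the values as deposited. Larp7, which holds the 7SK RNA that restrains P-TEFb, had 88.7 on the Elongin A-/- array and 169 on the Elongin A+/+ array. Ell, an elongation factor, was 1.75-fold higher and lies on chromosome 8, and Ell3, its relative, was 1.64-fold lower.

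The 2 arrays also differed in markers of cell type, and the RNA is from whole embryoid bodies, so fewer cells of a type and less RNA per cell cannot be told apart. Of 16 endothelial and blood markers 12 were measured. Of these, 8 were above the floor on the Elongin A-/- array alone, so they could only come out higher, and their differences are bounds. The 4 above the floor on both arrays were each at least 2-fold higher. The 12 had summed intensities of 199 on the Elongin A-/- array and 13.7 on the Elongin A+/+ array. Without Cldn5, picked out as the brightest of them, the sums were 138 on the Elongin A-/- array and 12.2 on the Elongin A+/+ array. Those 8 entered both sums only through their Elongin A-/- values, which tilts the sums towards that array. Neither array had Cdh5, Tie1, Gata1 or Ptprc above the floor. Cldn5, Kdr and Sox7 were 38.5-fold, 24.4-fold and 11.9-fold higher. Neural markers were at least 2-fold lower in 7 of 12 measured cases and higher in none, with sums of 298 on the Elongin A-/- array and 543 on the Elongin A+/+ array, and Map2 below the floor on both. Sox1, counted among the 7, was above the floor on the Elongin A+/+ array alone, so it could only come out lower. Another 1 was above the floor on the Elongin A-/- array alone and could only come out higher. Of the 12 neural markers measured, 10 were below 0 and 2 above. Without Tubb3, picked out as the brightest of them, the sums were 130 on the Elongin A-/- array and 364 on the Elongin A+/+ array. Olig3, Neurod4 and Isl1 were lower by 7.14-fold, 6.49-fold and 4.47-fold. Fibroblast and mesenchyme markers had 3 of 10 at least 2-fold higher, Col1a1, Col3a1 and Dcn, or 5 with the values as deposited, with sums of 1124 on the Elongin A-/- array and 785 on the Elongin A+/+ array. Vim, a filament gene made by many cell types, supplied most of both, and without it the sums were 188 on the Elongin A-/- array and 71.1 on the Elongin A+/+ array. Col3a1 supplied most of what was left, with 152 on the Elongin A-/- array and 41.8 on the Elongin A+/+ array. Of the 10 measured, 7 were above 0 and 3 below. Col1a1 was among 3 above the floor on the Elongin A-/- array alone, and 2 were above it on the Elongin A+/+ array alone. Such genes could come out in only 1 direction. The part of these cell types in the values of Fos, Ddit4 and Ier3 was not tested.

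**Figure D4:**
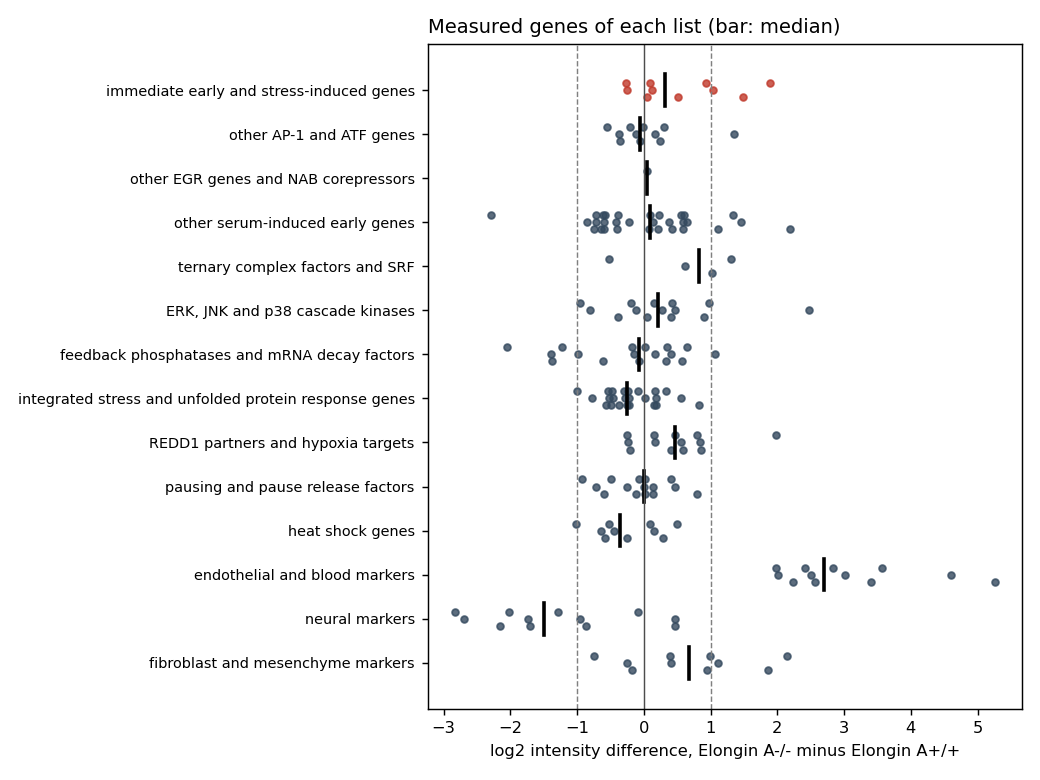
Log2 difference (Elongin A-/- minus Elongin A+/+) of every measured gene of the members (top row, red) and of the 13 other lists (dark), with the median of each as a black bar and dashed lines at 2-fold. The members spread from -0.26 to 1.90 around a median of 0.31, the heat shock genes have a median of -0.35, and 8 of the 12 endothelial and blood markers are bounds that could lie only to the right of 0.

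Across the other settings of scaling, floor and probes, Ddit4 was at least 2-fold higher in 10 of 10, Fos in 9 of 10 and Ier3 in 8 of 10. Part of each tally was fixed in advance. Each member has 1 probe, so the settings for probes could not alter it. A lower floor or none could not alter a member above the floor on both arrays, as Ddit4, Fos and Ier3 were. Junb passed 2-fold in 2 of the 9 settings that measured it, both with a lower floor or none. Jund was the member whose difference turned sign, at -0.38 with the chromosome median removed.

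**Figure D5:**
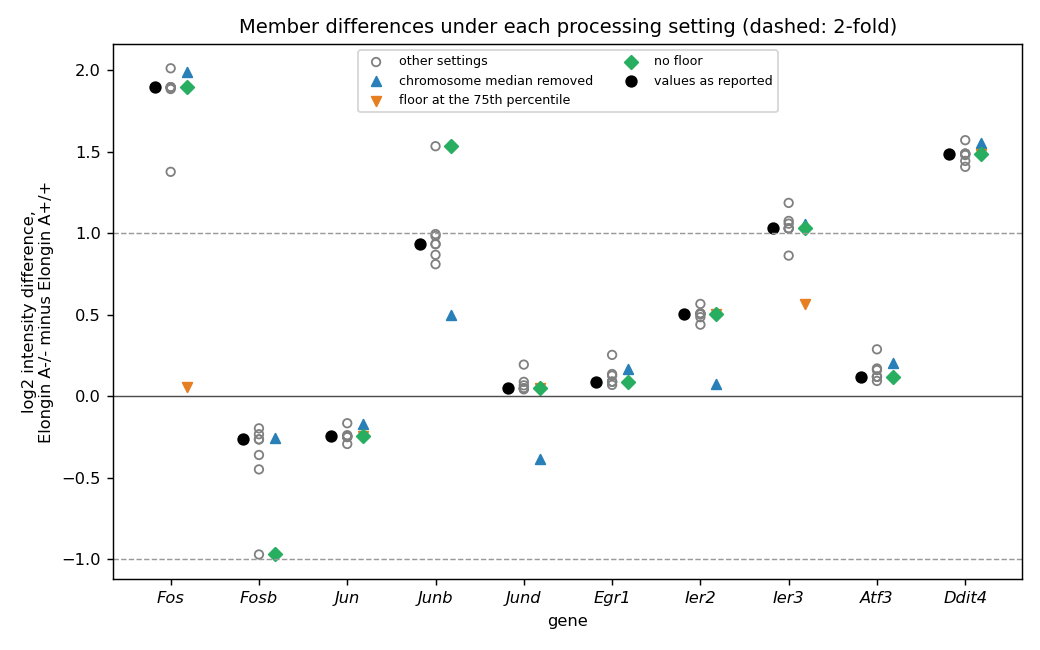
Log2 difference (Elongin A-/- minus Elongin A+/+) of each member as reported (black) and in the 10 other settings, with the median of the chromosome removed (blue triangles), the floor at the 75th percentile (orange triangles), no floor (green diamonds) and the rest (open circles). Ddit4 keeps within 1.41 to 1.57, Fos drops to 0.06 with the highest floor, and the members of chromosome 8 move down when its median is removed.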

How the data were processed

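The 2 arrays, 1 per genotype, are Applied Biosystems mouse arrays. Per the labels' protocols, RNA was transcribed into digoxigenin-labelled cRNA with a chemiluminescent kit. The values the authors deposited are intensities on a linear scale with medians of 1.03 (Elongin A-/-) and 1.02 (Elongin A+/+); the sources used here do not give their scaling, background correction or filters. Titles gave the genotype of each array.

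Probes with exactly 1 symbol in the platform annotation were named (14253 of 32440), and where a gene had several probes the one brightest on average was used. Percentiles of the arrays differed by up to 0.16 on the log2 scale (limit 0.1), so both were quantile normalised over all probes. The floor was the array median. Chromosomes and gene order came from RefSeq, GRCm38.p6. Nothing was tested, since having 1 array per genotype sets the precision. Genes were counted at 2-fold. The members and the 13 lists beside them were chosen with earlier results of these data known. Named genes were all members, Eloa, and the up to 3 genes of each list with the widest difference; others are said to be chosen after their values were seen, except genes that were counted, neighboured a member or were below the floor. The procedure was tested on simulated data, with known fold changes put only into bright genes with 1 probe. That test therefore did not cover dim genes or bounds at the floor. Python 3.11.15, numpy 2.4.6, pandas 2.3.3 and statsmodels 0.14.6 (loess span 0.3) were used.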

Additional observations from a re-analysis of the deposited data

How the results depend on the processing

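No paired analysis was possible because there is 1 array per genotype. A difference was taken to have moved where it shifted by more than the SD between probes, and a count where it changed by more than 1.5 times. The count of members at least 2-fold higher was 3, and became 1 with the higher floor, at the 75th percentile, and 1 at 3-fold. It stayed between 2 and 4 in the other settings, and the count of members lower was 0 in all 12. The median over members ranged from 0.18, with the chromosome median removed, to 0.43, with the values as deposited. Among all genes, 648 were higher and 573 lower. These were 1074 and 981 with the lower floor (25th percentile), 141 and 118 with the higher (75th), 1080 and 983 with no floor, 1511 and 1416 at 1.5-fold and 213 and 178 at 3-fold, where fewer or more genes clear the limit by construction. Higher genes made up 53.1% of those 2-fold apart, and 64.1% with the values as deposited, which moved the median of all measured genes by 0.09. Dim genes limit the precision: Fosb and Junb are bounds, and the lower value of Fos is near the floor. The search without the 50 bases after the start left the TATA letters in Fos alone.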
